A study of Drosophila melanogaster with 6 samples.

Results

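The pericentromeric intergenic peaks were 427 of the 3363 peaks in a list from chromatin immunoprecipitation of Myc-tagged Cyclin G in Drosophila melanogaster (build dm6). They were chosen by position only. A peak was a member when it lay past 22 Mb on 2L, past 22.9 Mb on 3L, before 4.2 Mb on 3R or past 21.3 Mb on X, overlapped no annotated gene by 1 bp, and had its midpoint in no annotated transposable element. These 4 stretches next to the centromeres held 726 peaks, of which 191 overlapped a gene and 108 had their midpoint in an annotated element. The members numbered 76 on 2L, 112 on 3L, 43 on 3R and 196 on X.

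Chromatin immunoprecipitation followed by sequencing was carried out on wing imaginal discs of female larvae of the third instar raised at 25 °C without treatment. The ChIP discs carried UAS-Myc-CycGΔP and da-Gal4/+, so that a Myc-tagged Cyclin G without its PEST-rich domain was expressed from the ubiquitous driver da-Gal4, and 2 ChIP replicates and the 2 inputs of their chromatin were made. The control discs carried da-Gal4/+ without the tagged protein and gave 1 mock ChIP and 1 mock input. Chromatin of 600 discs was pooled for a ChIP, 2% of it was set aside as input, and the rest was precipitated in 12 tubes that each received 3 µg of an antibody to Myc. The Myc-CycGΔP libraries were made from 38 ng of DNA with reads of 75 bp, and the mock libraries from 5 ng with reads of 50 bp. The list joins both Myc-CycGΔP replicates and gives only a sequence, a start and an end for each peak. It holds no score, height or depth, the mock libraries were not analysed here, and neither the spread between replicates nor the wing disc origin of the chromatin can be checked from positions. The peaks come from the precipitation of an overexpressed, truncated protein, and binding at each place was not tested. All values below are counts, shares and medians over peaks. Intervals are 95% Wilson intervals unless named otherwise, they cover counting error only, and they are too narrow where neighbouring members hold copies of the same sequence.

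Pericentromeric heterochromatin is the compact chromatin that flanks the centromeres. It is marked by methylated histone H3 lysine 9 and its binding protein HP1, is poor in genes, and is made largely of transposable elements, satellite DNA and, on the X and Y chromosomes, the tandem array of ribosomal RNA genes (rDNA). Transposable elements fall into LTR retrotransposons, whose ends are long terminal repeats, non-LTR retrotransposons, whose copies are often truncated at the 5′ end, and DNA transposons. Cyclin G is a cyclin that binds the chromatin regulators Corto and Asx.

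Each member was read in the dm6 sequence of RefSeq, and every word of 75 bp, the length of a read, was counted over both strands of the build. A read from a word that occurs at several places cannot be assigned to any 1 of them by its sequence. The members made of unique sequence (at least 90% of words at 1 place) were 7, and they are shown whole. Words were counted by their start, so those near the end of a member run past it. Only exact words were compared, so a unique member can still have diverged copies. In the sequences, capitals mark the DNA replication-related element (TATCGATA), the GAGA letters (GAGAG) and the TATA letters (TATAAA) on either strand. In the first sequence alone, which held none of these motifs, capitals mark exact runs of a short unit.
chr3R:4052801-4053098: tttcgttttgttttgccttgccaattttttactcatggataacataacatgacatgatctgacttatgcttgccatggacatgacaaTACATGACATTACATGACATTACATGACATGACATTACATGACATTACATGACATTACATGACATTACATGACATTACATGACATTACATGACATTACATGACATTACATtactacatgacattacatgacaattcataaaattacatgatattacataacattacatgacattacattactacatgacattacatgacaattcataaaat
chr3R:3789704-3789970: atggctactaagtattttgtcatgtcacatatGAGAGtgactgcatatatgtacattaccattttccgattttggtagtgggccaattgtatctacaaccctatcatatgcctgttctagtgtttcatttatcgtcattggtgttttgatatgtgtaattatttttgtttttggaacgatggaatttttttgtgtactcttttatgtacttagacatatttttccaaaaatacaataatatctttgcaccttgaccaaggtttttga
chr3L:24536050-24536301: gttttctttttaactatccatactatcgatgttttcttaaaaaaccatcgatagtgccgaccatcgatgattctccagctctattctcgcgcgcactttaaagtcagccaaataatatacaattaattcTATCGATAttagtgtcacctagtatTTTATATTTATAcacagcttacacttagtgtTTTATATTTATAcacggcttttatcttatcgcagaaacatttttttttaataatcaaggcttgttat
chrX:23291961-23292077: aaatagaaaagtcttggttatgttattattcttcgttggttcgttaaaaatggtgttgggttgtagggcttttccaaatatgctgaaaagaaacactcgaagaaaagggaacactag
chrX:23198454-23198568: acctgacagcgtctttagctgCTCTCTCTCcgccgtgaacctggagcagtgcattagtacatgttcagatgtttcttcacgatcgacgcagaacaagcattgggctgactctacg
chrX:22371310-22371409: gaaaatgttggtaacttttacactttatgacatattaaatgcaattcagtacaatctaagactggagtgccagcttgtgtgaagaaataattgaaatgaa
chrX:23352665-23352754: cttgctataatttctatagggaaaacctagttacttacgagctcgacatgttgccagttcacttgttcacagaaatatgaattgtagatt

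These 7 members were narrow, from 90 bp to 298 bp. The widest, chr3R:4052801-4053098, had 29.5% G and C, was a degenerate tandem repeat with 36.9% of its bases in exact short runs, and lay 24989 bp from the nearest transcript start, that of CG42402. The member chr3R:3789704-3789970 lay 39474 bp from the start of CG41128 and had no similarity to an annotated element. The member chr3L:24536050-24536301 lay 1060 bp from the start of mRpS5, which encodes a protein of the small subunit of the mitochondrial ribosome, and held the letters of the DNA replication-related element (TATCGATA). The member chrX:23291961-23292077 lay 319 bp from the start of the 2S rRNA gene 2SrRNA:CR45864. The member chrX:23198454-23198568 lay 2291 bp from the pseudogene 28SrRNA-Psi:CR45853 and was a diverged copy of the non-LTR element Rt1b, at 95.7% identity to the annotated copy it matched best. So 3 of the 7 lay on the autosomes and 4 on X.

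Sequences shared between members are shown as words of read length. A word is printed for each of the 4 largest families of members with common sequence (defined with the arrays). It is the word held by the most members of that family among the words considered. A label with element names lists elements found in the family, and the word need not occur in each of them. Words that also occur on an autosomal arm without members were not considered, so a word left out may be held by more members. Capitals mark GAGAG on either strand.
R1A1, Circe and G family, chrX:23232037-23232111: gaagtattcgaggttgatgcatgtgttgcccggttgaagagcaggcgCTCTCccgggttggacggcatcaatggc
2L array, chr2L:22414111-22414185: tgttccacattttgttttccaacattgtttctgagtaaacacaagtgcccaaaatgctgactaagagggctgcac
X array, chrX:21818195-21818269: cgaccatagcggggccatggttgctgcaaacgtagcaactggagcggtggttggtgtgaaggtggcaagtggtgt
Rt1b family, chr3L:26064628-26064702: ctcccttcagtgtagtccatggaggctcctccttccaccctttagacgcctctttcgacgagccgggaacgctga

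The word of the 2L array occurred in 30 of its 61 members and at 42 places of the build. That of the R1A1, Circe and G family occurred in 10 of 95 members and at 36 places. That of the X array occurred in 14 of 59 members and at 16 places, and that of the Rt1b family in 7 of 26 members and at 7 places. A read with the 2L word therefore had 42 equal places to be put, most of them within members.

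The description of the members as lying outside elements held for the annotation, but most members were similar in sequence to an element. Of the 427 members, 281 (65.8%, interval 61.2% to 70.1%) matched an annotated element elsewhere in the genome with at least 80% identity over at least 50% of the member. Only 11 members (2.58%) touched an annotated element with any base. A further 27 members (6.32%), all on X, matched the rDNA sequence and no element. In 106 members (24.8%) neither was found but the sequence was shared with other members, and 5 had copies elsewhere in the build only. This left 8 members (1.87%, interval 0.952% to 3.65%) with no copy at 90% identity over 80% of their length. They were 4 of the 7 unique members, 2 members with unread bases (N) over 49.6% and 55.4% of their length, and 2 made mostly of short runs. To set these shares against the sequence the members could have come from, the bases of the 4 stretches in no gene, no annotated element and no gap (5640540 bp) were tiled without overlap by 12341 windows of 443 bp, the members' median width. Of these windows 56.6% were similar to an annotated element by the same rule, as were 51.7% of all peaks of the list. Among the other peaks of the 4 stretches the share was 62.8% (55.8% to 69.4%) for those that overlapped a gene, an interval that includes the members' share, and 95.4% for those with the midpoint in an annotated element.

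**Figure D1:**
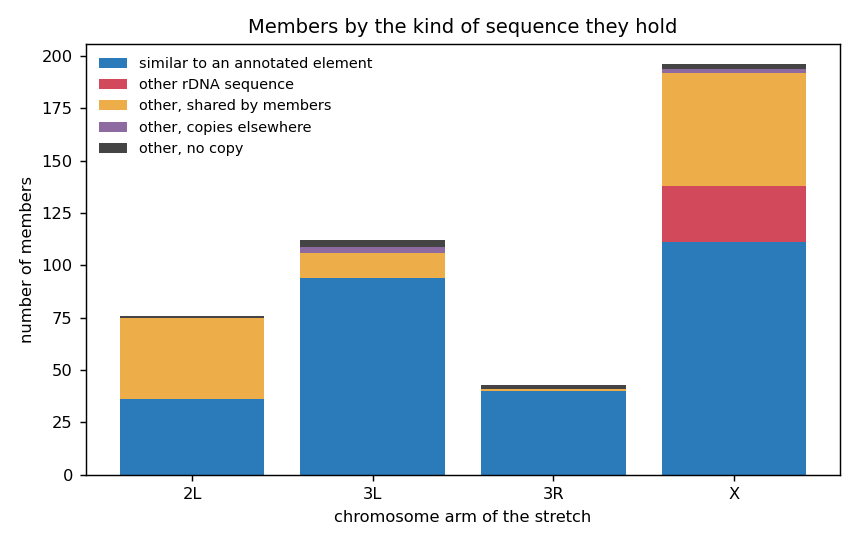
Number of members (vertical axis) on each of the 4 stretches (horizontal axis), split by the kind of sequence they hold. Element sequence makes up 40 of 43 members on 3R and 94 of 112 on 3L, while 2L (39 of 76) and X (54 of 196) have the most members with other shared sequence and only X has other rDNA sequence (27).

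The kinds of sequence differed between the stretches. On 3R 40 of 43 members and on 3L 94 of 112 were similar to an element, against 36 of 76 on 2L and 111 of 196 on X. The shares on 3R (93.0%, 81.4% to 97.6%) and 3L (83.9%, 76.0% to 89.6%) were above those of the windows of the same stretches, 55.1% and 59.6%. The intervals of 2L (47.4%, 36.5% to 58.4%) and X (56.6%, 49.6% to 63.4%) included the shares of their windows, 53.4% and 53.9%. Sequence shared by members and not similar to an element made up 39 members on 2L and 54 on X. The members of 2L were 93.8% repeat-masked in the reference and those of X 46.6%. Over all members 59.2% of the bases were repeat-masked and 46.3% were G or C, against 41.2% and 40.7% in the windows. All peaks of the list were 62.4% masked with 42.4% G and C, those with the midpoint in an annotated element of the same stretches 68.5% and 49.6%, and those on sequences outside the arms were 84.9% masked.

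Members were dense in their territory. There were 75.7 members per Mb of the territory (Poisson 95% interval 68.7 to 83.2), against 2.40 (1.82 to 3.11) for peaks of the same kind on the rest of the same 4 arms, where 57 such peaks lay in 23.7 Mb. The density was 180 per Mb on X (156 to 207), 91.7 on 2L (72.3 to 115), 43.6 on 3L (35.9 to 52.5) and 37.2 on 3R (26.9 to 50.2). The intervals of 3L and 3R overlapped, and those of X and 2L overlapped no other. On 2L 62 of the 76 members lay within 1 bin of 100 kb, from 22400001 to 22500000, whereas the densest such bin held 46 of 196 members on X, 10 of 43 on 3R and 11 of 112 on 3L. No limit of the rule cut through a cluster of peaks of this kind. The first member inside the limit lay 411 kb past it on 2L, 469 kb on 3L, 147 kb on 3R and 518 kb on X. The nearest peak of the same kind outside it lay 474 kb before it on 2L and 2803 kb, 5297 kb and 3994 kb away on 3L, 3R and X.

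The members were 87 bp to 9330 bp wide, with quartiles at 178 bp, 443 bp and 784 bp, and covered 266819 bp in all. All peaks of the list had a median width of 365 bp. The widest member of the stretches, chrX:23377383-23386712, spanned 9330 bp. Copies of the LTR retrotransposon Circe together matched 53.7% of its length, with 93.7% identity in the longest match, and the rDNA sequence matched 25.9%. It had the rRNA gene 2SrRNA:CR45864 as the nearest start, 90348 bp away. The narrowest, chrX:23472007-23472093, had 87 bp, of which 52.9% matched rDNA. Its nearest start was that of an ncRNA gene at the end of the arm, 66193 bp away. On 3L the widest was chr3L:27069051-27072199 (3149 bp, 13281 bp from the start of CG40228), which was similar to no element. The narrowest on 3L, chr3L:27789038-27789128 (91 bp, 60143 bp from the pseudogene CR14578), was a Circe fragment at 98.8% identity. On 2L the widest was chr2L:22424267-22426676 (2410 bp, 71117 bp from the start of Marf1, a regulator of mRNA in the oocyte) and the narrowest chr2L:22803627-22803730 (104 bp, 5403 bp from the start of CG40439), an invader1 fragment. On 3R the widest was chr3R:258632-259507 (876 bp, Stalker4 at 98.9% identity) and the narrowest chr3R:422327-422428 (102 bp, Circe at 100% identity). Both had the unconventional myosin gene Myo81F as the nearest start, at 308006 bp and 144698 bp.

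Members made of unique sequence were rare. Of all words in members 13.6% were unique, against 43.7% in the windows and 26.0% in all peaks. Unique members were 7 of 427 (1.64%, interval 0.796% to 3.34%), against 26.6% of the windows and 22.0% of all peaks. Members without any unique word were 203 (47.5%, 42.8% to 52.3%), against 28.7% of the windows and 27.6% of all peaks. The peaks of the same stretches that overlapped a gene (41.9%, 35.1% to 49.0%) or had the midpoint in an element (43.5%, 34.6% to 52.9%) had intervals that overlapped that of the members. No member of 2L was unique, and 0 of 76 allows a share of up to 3.95%, taken here and for other counts of 0 as 3 counts of the total and not as a Wilson bound. Peaks of the same stretches that overlapped a gene were unique in 34 of 191 cases (17.8%, 13.03% to 23.8%), and peaks on the rest of the arms in 623 of 1379 (45.2%). Peaks with the midpoint in an annotated element were like the members, with 2 unique of 108 (1.85%, 0.509% to 6.50%), and on sequences outside the arms 73 of 1258 peaks were unique (5.80%, 4.64% to 7.23%). The difference from the windows lay also in the other direction of the comparison: of 3286 unique windows 23 overlapped a peak (0.700%, 0.467% to 1.05%), as did 11.7% of the 3536 windows without a unique word (10.6% to 12.8%). All windows together overlapped a peak in 7.64% of cases.

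**Figure D2:**
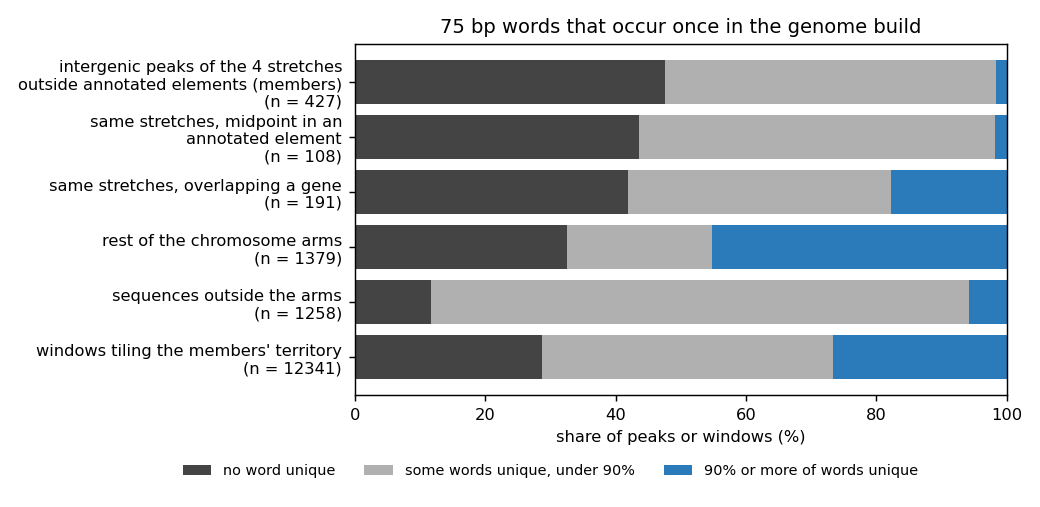
Share of peaks or windows (horizontal axis, %) with no unique 75 bp word, with some, and with 90% or more of their words unique, for the members (top), the other peaks of the list and the windows that tile the members' territory. The unique share is 1.64% in the members and 26.6% in the windows.

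The words of a member recurred at a median of 7 places (the member's median word, quartiles 3 and 15.9, 426 members with a countable word). The median was 24.3 places on 2L, 7 on 3L, 7 on 3R and 5 on X. For 388 of the 426 the median word lay at 2 places or more, for 183 at 10 or more and for 10 at 100 or more. Counted over all places of the build that hold a word of a member, 16.2% were the members themselves, 28.4% lay in other sequence of the 4 stretches, 39.5% on the rest of the arms and 15.9% on sequences outside the arms. These other places were in peaks more often than all words of the same part of the build. On sequences outside the arms 49.6% of them lay in a peak, against 13.4% of all words there. On the rest of the arms the shares were 24.2% and 0.637%, and in the other sequence of the 4 stretches 15.6% and 1.47%. An exact copy thus lay in a peak more often than the words of its part of the build at large, and most copies on the arms lay in none. Sequence next to the copies, or as repeated as they are, was not compared. With copies of at least 90% identity over 80% of a member, places on the arms held a peak in 23 of 194 cases at 90% to 92% identity (11.9%, 8.03% to 17.2%) and in 1181 of 3063 at 98% to under 100% (38.6%, 36.8% to 40.3%). At 100% identity the share was 34.9% (31.7% to 38.1%).

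Among the 281 members similar to an element, 137 matched non-LTR retrotransposons (48.8%), 136 LTR retrotransposons (48.4%) and 8 DNA transposons (2.85%). The windows similar to an element were 29.0% non-LTR, 57.6% LTR and 9.48% DNA transposons. The members matched closer copies than the windows did. The identity of the longest match to the element family had a median of 98.2% (quartiles 95.3% and 99.4%) in the members and 92.3% (85.6% and 97.9%) in the windows. At 95% identity or more stood 215 of 281 members (76.5%, 71.2% to 81.1%) and 40.4% of the 6991 windows. Identity under 90% was found in 28 members (9.96%) and 41.2% of the windows.

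Element families were represented unevenly. The most frequent were Rt1b with 28 members (24 on 3L), Circe with 26 (14 on 3R), R1A1 with 26 (all on X), G with 19 (18 on X) and invader1 with 17. Then came FW, Max, R1 and baggins with 12 each and HMS-Beagle with 11. Rt1b, R1A1, R1, G, FW and baggins are non-LTR retrotransposons, and Circe, invader1, Max and HMS-Beagle are LTR retrotransposons. The identity of the members in their longest match differed between families, with medians of 99.6% in FW, 99.3% in HMS-Beagle, 98.6% in invader1, 97.96% in Circe, 97.6% in G, 97.5% in R1A1, 96.8% in Max, 95.6% in R1, 94.2% in Rt1b and 83.6% in baggins. Within Rt1b it ranged from 80.6% to 99.8%. Since abundant families would give many members at any rate, the windows that overlapped a peak were counted as well. This was done for the families with 4 or more members, and for Cr1a and INE-1. Other families with few members were left out, among them gypsy4 (218 windows, 3 members) and GATE (157 windows, 1 member). A choice by number of members favours families with many peaks. For R1 these were 45 of 46 windows (97.8%, 88.7% to 99.6%), for G 42 of 48 (87.5%, 75.3% to 94.1%), for R1A1 66 of 76 (86.8%, 77.4% to 92.7%) and for R2 15 of 27 (55.6%, 37.3% to 72.4%). R1 and R2 are retrotransposons that insert at fixed sites of the 28S rRNA gene.

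A middle group of families stood above the 7.64% of all windows. It held HMS-Beagle2 with 13 of 39 windows (33.3%, 20.6% to 49.0%), invader1 with 40 of 128 windows (31.3%, 23.9% to 39.7%), FW with 33 of 122 (27.0%, 19.96% to 35.5%), HMS-Beagle with 32 of 124 (25.8%, 18.9% to 34.2%), Circe with 53 of 214 (24.8%, 19.5% to 30.96%), Rt1b with 54 of 257 (21.0%, 16.5% to 26.4%) and Max with 33 of 163 (20.2%, 14.8% to 27.1%). The intervals of these 7 families overlapped one another. F with 12 of 69 (17.4%, 10.2% to 28.0%) and springer with 14 of 98 (14.3%, 8.70% to 22.6%) followed, while the intervals of baggins (24 of 217), Stalker4 (15 of 147), gypsy6 (12 of 137), Doc2 (6 of 46), rooA (12 of 181), Stalker (7 of 108) and roo (6 of 118) included the share of all windows. At the other end, Cr1a, the most frequent of these families in the windows with 347, overlapped a peak in 1 window (0.288%, 0.0509% to 1.61%), and the DNA transposon 1360 in 8 of 226 (3.54%, 1.80% to 6.83%). INE-1, an old and very abundant element, had 0 of 139 windows with a peak, which allows a share of up to 2.16% (3 counts of the total). Windows similar to any element overlapped a peak in 9.01% (8.36% to 9.71%) and the other windows in 5.85% (5.25% to 6.51%).

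**Figure D3:**
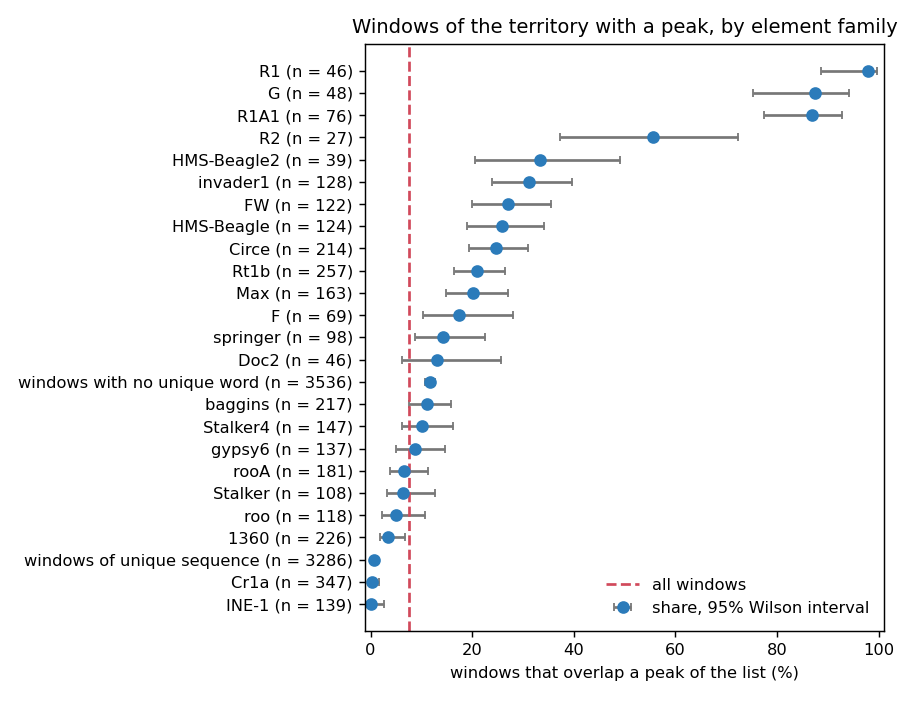
Share of the windows of the territory that overlap a peak (horizontal axis, %), by the element family the window is similar to, with 95% Wilson intervals and the number of windows. Families with 4 or more members are shown, with Cr1a and INE-1. The dashed line is the share of all windows (7.64%). R1 (97.8%), G (87.5%) and R1A1 (86.8%) lie far to the right of it, and Cr1a (0.288%), INE-1 (0 of 139) and the windows of unique sequence (0.700%) to the left.

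The members of a family did not always come from the whole element. They were aligned to the longest annotated copy of the family without another element inside, and the matched bases were divided over 4 equal parts from 5′ to 3′. In Rt1b (5195 bp) 63.6% of the bases matched by the 28 members fell in the last part, against 25.6% for the windows, and 0.675% against 22.2% in the first part. The deepest point, at 4664 bp, was matched by 15 of the 28 members. In FW (4688 bp) 59.8% fell in the last part and none in the first, against 40.6% and 14.8% for the windows. In baggins (5915 bp) all bases matched by the 11 members that aligned fell in the last part, against 36.7% for the windows. Here 11 of the 12 baggins members belonged to the X array described below, so that they repeat 1 arrangement.

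The members of Rt1b lay at 9 loci more than 10 kb apart and 26 of them belonged to 1 family of common sequence. Those of FW lay at 11 loci. In G, R1A1 and Circe the members matched all 4 parts of the element. In G (4127 bp) the 4 parts held 25.2%, 24.8%, 28.7% and 21.3% of the matched bases, in R1A1 (5355 bp) 13.1%, 29.3%, 29.4% and 28.2%, and in Circe (5413 bp) 20.6%, 32.1%, 27.8% and 19.6%. For the windows the last part held 28.0% in G, 32.0% in R1A1 and 33.8% in Circe. No Circe member matched from 89% to 93% of the element's length, where 12.1% of the windows did at 89%. The 19 G members, though spread over the element, lay at 4 loci. The LTR retrotransposon HMS-Beagle (7072 bp) was matched mostly at both ends, with 31.4% of the bases in the first part and 36.8% in the last, and the windows had 41.6% and 32.2% there. In R1 the first part held 48.3% of the bases matched by members, against 29.9% for the windows, and in invader1, where 10 of 17 members aligned, 54.5% against 26.5%. In Max the last part held 47.4%, against 26.7%. These 4 families also rest on few places. The 12 Max members lay at 3 loci, the 12 of R1 at 6 and the 17 of invader1 at 7. The 11 HMS-Beagle members, of which 10 aligned, lay at 4 loci, and 8 of them belonged to the 2L array. A match within a long terminal repeat falls on both ends of the element.

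**Figure D4:**
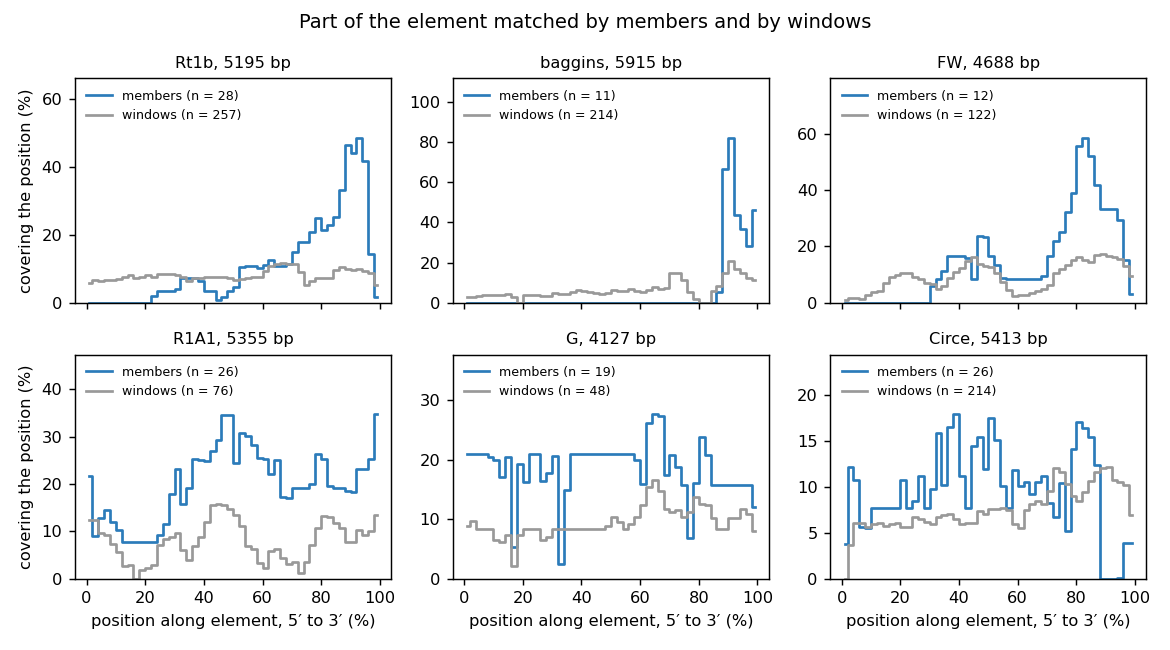
Share of the members (blue) and of the windows (grey) of a family that match each position of an annotated copy (vertical axis, %), along the copy from 5′ to 3′ (horizontal axis, % of its length), for 6 element families. Members of Rt1b, baggins and FW pile up near the 3′ end, with 63.6%, 100% and 59.8% of their matched bases in the last of 4 equal parts. Those of R1A1, G and Circe match all 4 parts, with a gap near the 3′ end in Circe.

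A block of members at the proximal end of X had rDNA sequence. It comprised 45 members similar to R1, R1A1 or R2 and the 27 members with other rDNA sequence, 72 in all, every one on X. They lay from 23231420 to 23537987, within 307 kb that ended 4.28 kb before the end of the arm sequence. This span held 107 of the 196 members of X (54.6%), and also 18 of the 19 G members. Of its 621 windows 266 (42.8%) overlapped a peak. Among the 27 other rDNA members, 12 had the centre of their best match in a 28S rRNA gene or pseudogene and 2 in the 18S rRNA gene. It lay in other parts of the pre-rRNA for 3 members and in no annotated rRNA gene for 10. The members nearest to a transcript start were found here: chrX:23537882-23537987 lay 308 bp from the start of the ncRNA gene at the arm's end, chrX:23291961-23292077 lay 319 bp from 2SrRNA:CR45864, and chrX:23284135-23284231 lay 452 bp from pre-rRNA:CR45856. Peaks on annotated rRNA genes overlap a gene and so are not among the members.

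Most members shared sequence with each other. With matches of at least 90% identity over at least 50% of the shorter member, 353 members (82.7%, 78.8% to 86.0%) fell into 35 families of 2 or more, and 74 stood alone. The largest family had 95 members and chained R1A1 (26), Circe (24) and G (19) sequence, with 68 members on X, 14 on 3L and 13 on 3R. Its widest member was the 9330 bp member of X. Another family had 26 members, all Rt1b. A copy within 10 kb was found for 193 members (45.2%, 40.5% to 49.9%), and 398 (93.2%) had at least 1 copy elsewhere in the build. Another peak lay within 1 kb of 305 members (71.4%). None of these shares was computed for the windows or the other peaks, so they cannot be read as particular to the members.

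The next largest families each occupied 1 stretch of 1 arm and are referred to as the 2L array and the X array. For the X family the name is a label only, since its members lay in separate groups without 1 dominant spacing. The 2L array held 61 of the 76 members of 2L, in 93771 bp (chr2L:22410401-22504171) without an annotated gene, between Marf1 and RpL5. The most frequent distance between successive occurrences of the same 31 bp word was 1378 bp, and 48.4% of all such distances lay within 20 bp of it, so that about 68.0 units fit into the span. Peaks covered 47.3% of it, and 11.6% of its words were unique. The median member had 554 bp. Neighbouring midpoints were a median of 1152 bp apart (quartiles 633 bp and 1723 bp). Of the 61 members, 22 were similar to an element, of which 8 to HMS-Beagle, 7 to invader1 and 6 to HMS-Beagle2, and 39 to none. Its widest member was the widest of 2L.

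The X array held 59 members over 597 kb (chrX:21818135-22414968), from 27403 bp past lncRNA:flam, the flamenco locus that gives rise to piRNAs against retrotransposons, to 29258 bp before CG14621. It was looser, with 21 genes inside, 11.4% of its bases in peaks and a modal distance of 3509 bp that accounted for 8.68% of distances. Neighbouring midpoints were a median of 1530 bp and at most 162772 bp apart. Similarity to an element (baggins) was found in 11 of its members. Its widest member, chrX:22273698-22276197 (2500 bp), was 23366 bp from the start of CG41562. A smaller group of 7 members on 3L (chr3L:26942014-27076952) was similar to no element, had a modal distance of 4880 bp and included the widest member of 3L. Within the X array's span, 6 further members (chrX:22169827-22244172) made up a family of their own with a modal distance of 4995 bp.

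**Figure D5:**
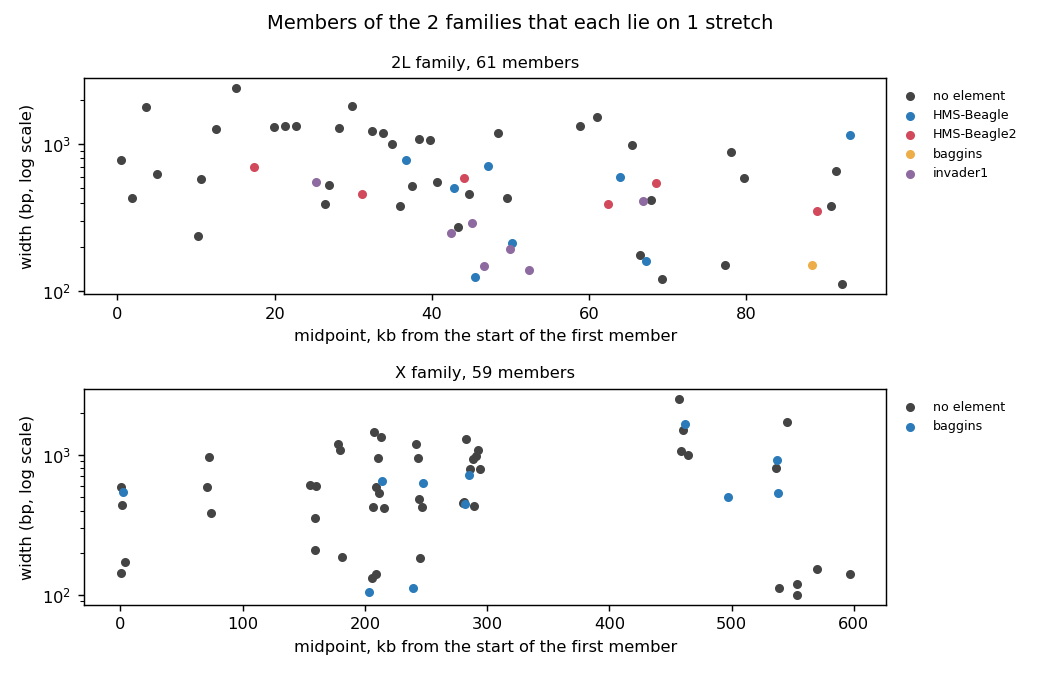
Width (vertical axis, bp, log scale) of each member of the 2L array (top) and the X array (bottom) against its distance from the start of the first member (horizontal axis, kb), coloured by the element it is similar to. The 61 members on 2L line up over 93.8 kb and the 59 on X form separate groups over 597 kb.

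Short simple repeats were rare among the members. Exact runs of a unit of 1 to 12 bp, with 3 copies and 20 bp or more, were found in 6 members (1.41%, 0.646% to 3.03%) and 5.50% of windows. In 2 members the runs made up most of the sequence: chr2L:23513102-23513712, at the end of the 2L sequence, with 99.5% of its bases in runs, and chr3L:24578951-24579663 with 75.5%, both singled out after their values were seen. These 2 were 0.468% of the members (0.129% to 1.69%), an interval that includes the 0.810% of windows (100 of 12341) with 50% or more of their bases in runs. The heterochromatic satellites AATAT and AAGAG were found as 3 copies in a row in no member, which allows a share of up to 0.703% (3 counts of the total), and in 15 and 3 of the 12341 windows.

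The members lay far from transcript starts, which follows in part from the rule, since peaks that overlap a gene are left out. The windows lie in no gene either, whereas the peaks of the whole list include those on genes. The median distance was 66193 bp (order-statistic 95% interval 61221 to 75008 bp) for the members, 39319 bp for the windows and 6141 bp for the 2123 peaks of the list on sequences with an annotated start. It was shortest on X (61328 bp) and longest on 3R (123128 bp). The windows of 2L, with a median of 17497 bp, differed most from the members of the same stretch, with 66514 bp. Of those 76 members, 61 lie in the 2L array. Within 1 kb of a start lay 4 members (0.937%), and this share was not computed for the windows. In a list of 11 genes known from these stretches, the ribosomal protein genes RpL5 and RpL15 lay 33061 bp and 35428 bp from the nearest member, vtd (the cohesin subunit Rad21) 18382 bp, and the RNA helicase gene Dbp80 47489 bp. The 11 genes were chosen with earlier results of these data known. The share of all genes with a peak on a start was not computed beside them. RpL5, RpL15, vtd and Dbp80 had a peak on a start of their own, and the other 7 genes had none. Of these, lt (light, a vacuolar sorting protein) lay 89338 bp and cta (concertina, a G protein subunit) 110949 bp from the nearest member, su(f), an mRNA 3′ end processing factor, 100865 bp, the endocytosis genes stnA and stnB 193626 bp, the secreted ligand gene fog 343080 bp and the cell adhesion gene nrm 370601 bp.

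The 4 motifs were searched on both strands as plain letters. GAGAG was found in 50.1% of members (45.4% to 54.8%) and 42.6% of windows, CACGTG (E-box) in 5.85% (3.997% to 8.50%) and 3.81%, TATCGATA (DNA replication-related element) in 1.41% (0.646% to 3.03%) and 1.71%, and TATAAA in 29.3% (25.2% to 33.8%) and 42.4%. Members were of unequal width and richer in G and C than the windows, with 46.3% against 40.7%, and the part of either in these shares was not tested.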

How the data were processed

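The authors filtered reads, aligned them to dm6 with Bowtie2 2.1.0 at default settings, which put a read matching several places equally well at 1 of them, ran MACS2 2.1.0 on either ChIP replicate with the matching input, selected peaks found in both by the irreproducible discovery rate, and merged those that overlapped (bedtools). The deposited list holds other values than counts or signal: 3 columns with the sequence, the start counted from 0 and the end of each peak. Positions are given from 1. The members, the gene list, the motifs and the thresholds were chosen with earlier results of these data known. The sequence families and word counts that single out the arrays, the rDNA block, the positions along elements and the windows per family were defined after the members were seen.

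Genes (18358) and transposable elements (5896) came from Ensembl release 115 (FlyBase annotation 6.54), and sequence and repeat masking from the RefSeq copy of dm6. Words with N were not counted. Similarity was searched with BLAST 2.17.0 (blastn), leaving out element records that a member overlaps, and nested elements were blanked. Python 3.11.15 with numpy 2.4.6, scipy 1.17.1, numba 0.67.0 and matplotlib 3.10.9 was used. The word counts and the reading of BLAST matches were tested on simulated sequences. No significance test was run, since the list has 1 value per place and members are copies of each other. The list gives no depth, so intervals cover counting error over peaks or windows.

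Members were named by rule: the widest and narrowest of each stretch, the 5 widest unique ones, the 3 nearest to a transcript start and the widest of each of the 3 largest families, with the nearest gene of each and the 11 listed genes. The alternatives tried changed the gene, element and width rules, the limits, the joining of neighbours, the annotation, and the word and similarity thresholds.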

Additional observations from a re-analysis of the deposited data

How the results depend on the processing

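No paired analysis was possible because the list has no column per sample, and for the same reason no replicate could be left out. Of the alternatives, 59 left a result within the interval of its main value (within an allowed factor for the number of members) and 22 moved it. With only peaks at or above the median width of the list there were 252 members at 44.7 per Mb with a median of 670 bp, of which 0% were unique. With members within 1 kb joined there were 206 at 36.5 per Mb with a median of 585 bp, short runs in 3.40% and a median of 60117 bp to a start. Limits 500 kb farther from the centromere gave 68.6 per Mb, and limits 500 kb closer to it a repeat-masked share of 52.2%. Leaving out a peak only when a gene covered at least 50% of it gave 6.61% unique members and 78.4% sharing sequence. No overlap with an element left 0% touching one, by construction. Unique members were 9.13% at a share of 50% of words (windows 40.7%) and 0.468% with words of 50 bp (windows 21.2%). Members similar to an element were 55.0% at 80% cover (windows 45.0%), and at 90% identity 63.7% (windows 42.2%). Against protein-coding starts the median distance was 94565 bp. Chosen after seeing the data, leaving out the 2L and X arrays gave a median width of 399 bp, 80.8% similar to an element, 75.9% sharing sequence and 61162 bp to a start, and leaving out the rDNA members moved none of the 6 results tried. In every alternative the unique share of members was below that of the windows, where both were computed. The windows have 1 width and the members have many, which bears on all shares by cover.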

Other observations

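Peaks on copies were counted by place as well as by member. On the arms, places with a copy of a member held a peak in 19.2% of cases at 92% to 94% identity (44 of 229), 29.7% at 94% to 96% (161 of 543) and 34.8% at 96% to 98% (378 of 1087). On sequences outside the arms the shares were 55.4% at 90% to 92% (51 of 92), 41.4% at 92% to 94% (36 of 87), 59.7% at 94% to 96% (154 of 258), 68.9% at 96% to 98% (384 of 557), 49.2% at 98% to under 100% (234 of 476) and 21.6% at 100% (11 of 51). Places of 1 family are not independent of each other, and the cause of the differences was not tested.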
